A study of Mus musculus with 12 samples.

Results

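The cytotoxic granule genes described here are Gzma, Gzmb, Gzmc, Gzmk, Prf1, Srgn, Nkg7, Serpinb9, Lamp3 and Ctsw. They were chosen by name, as genes of the killing machinery of lymphocytes, and were found by gene symbol or Ensembl identifier. All 10 had an identifier among the 38924 genes of the count files, and 8 of them were among the 13811 genes with enough reads to be tested. Gzmk and Lamp3 were not, with 0 to 4 reads and 0 to 5 reads per library. Each of the 8 tested genes had at least 180 reads in every library. In this set Serpinb9 and Srgn rose and 5 granule genes fell when WT T cells met the STING agonist CMA, whereas Gzmb alone passed the test in STINGgt/gt T cells. Of all genes tested, 33.0% passed as higher and 37.4% as lower with CMA in WT T cells. In STINGgt/gt T cells these shares were 0.398% and 0.920%.

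The RNA came from splenic T cells labelled CD4+ from C57BL/6 mice aged 8 to 12 weeks. Sorted naive cells were activated through CD3 and CD28 by antibodies, which stayed on for 2 days and were absent during the following day of rest, so that cells of all 4 groups had been activated beforehand. They were then kept for 16 h with the solvent DMSO or with CMA (10-carboxymethyl-9-acridanone), which binds and activates mouse STING. The study reported signs of apoptosis after overnight CMA in WT but not in STINGgt/gt T cells. How many cells were dying in these cultures is not given, and the part of cell death in the differences below was not tested. The 4 groups, of 3 libraries each, were WT with DMSO, WT with CMA, STINGgt/gt with DMSO and STINGgt/gt with CMA. STINGgt/gt (Goldenticket) mice, whose genotype the labels give as STING KO, carry a missense mutation of Tmem173 in every cell of the body and make no functional STING protein. The methods name both genotypes as separately obtained lines on this background and mention no littermates. The labels number the replicates but do not say which animals or cultures they came from, and p-values therefore measure the spread between these libraries, which may in part be technical.

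Cytotoxic lymphocytes kill by releasing granules at the contact with a target cell. Perforin, the product of Prf1, forms pores in the target membrane, and granzymes, serine proteases made as inactive precursors, enter and cleave proteins that trigger cell death. Serglycin (Srgn) is the proteoglycan core that holds both in the granule, Nkg7 is a granule membrane protein needed for efficient release, and Serpinb9 encodes a cytosolic inhibitor of granzyme B that protects the cell from its own enzyme. Most helper (CD4+) T cells contain few such granules, but activation and interleukin-2 are known to induce granzyme B in them.

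The RefSeq promoter table (GRCm38.p6, 250 bases before to 50 bases after a start site) held an entry for 9 of the 10 genes, all but Ctsw, and 10 entries in all because Srgn has an upstream and an internal start site. The promoters of 4 genes are shown, those of the gene that rose most with CMA in WT T cells (Serpinb9), the gene that fell most (Gzma), the most abundant gene (Gzmb) and the gene that encodes perforin (Prf1). The start site of the Serpinb9 entry lies inside the deposited bounds of the gene. The windows lie at chr13:33004291-33004590 (plus strand), chr13:113100932-113101231 (minus strand), chr14:56262285-56262584 (minus strand) and chr10:61297586-61297885 (plus strand). Each is written 5′ to 3′ along its gene, and capitals mark matches on either strand to the motifs named after them.
Serpinb9: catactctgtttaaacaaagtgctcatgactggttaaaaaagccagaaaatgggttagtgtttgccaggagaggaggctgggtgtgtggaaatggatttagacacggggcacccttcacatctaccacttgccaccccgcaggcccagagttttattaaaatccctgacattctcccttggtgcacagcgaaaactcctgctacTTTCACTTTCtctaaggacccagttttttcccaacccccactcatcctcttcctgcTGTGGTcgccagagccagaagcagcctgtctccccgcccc
Gzma: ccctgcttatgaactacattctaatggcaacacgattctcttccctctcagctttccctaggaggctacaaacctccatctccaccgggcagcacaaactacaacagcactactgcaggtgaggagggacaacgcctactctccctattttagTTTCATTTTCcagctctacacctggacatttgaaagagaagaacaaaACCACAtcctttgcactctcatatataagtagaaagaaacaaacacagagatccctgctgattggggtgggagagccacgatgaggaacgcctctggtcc
Gzmb: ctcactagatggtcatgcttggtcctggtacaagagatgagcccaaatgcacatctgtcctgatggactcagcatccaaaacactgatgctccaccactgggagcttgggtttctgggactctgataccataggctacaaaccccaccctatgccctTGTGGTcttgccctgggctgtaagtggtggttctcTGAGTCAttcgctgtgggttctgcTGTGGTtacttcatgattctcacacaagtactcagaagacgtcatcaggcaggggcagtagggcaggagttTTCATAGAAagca
Prf1: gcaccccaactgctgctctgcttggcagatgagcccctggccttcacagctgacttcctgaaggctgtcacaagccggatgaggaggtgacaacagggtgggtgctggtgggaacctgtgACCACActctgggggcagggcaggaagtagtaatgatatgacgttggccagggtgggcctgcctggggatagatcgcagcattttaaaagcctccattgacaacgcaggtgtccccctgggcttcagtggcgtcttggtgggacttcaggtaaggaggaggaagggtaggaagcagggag

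The letters searched, on both strands, were GAAANNGAAA (the interferon-stimulated response element, ISRE), TTCNNNGAA (the STAT site, GAS), TCACACC (T-box), TGTGGT (RUNX) and TGANTCA (AP-1), and NF-kB was searched by its consensus. No match in these genes overlapped another. ISRE letters stood in 4 of the 10 promoter entries, against 3.44% of all 32851 promoters of the same length. These 4 were of Serpinb9, Gzma, Srgn (at its internal start site) and Lamp3. In Serpinb9 the match began at base -46 from the start site and in Gzma at base -97. The genes with these letters did not move together: Serpinb9 and Srgn rose with CMA in WT T cells, Gzma fell, and Lamp3 was near 0. RUNX letters stood in 7 of the 10 promoter entries, each of a different gene, against 16.8% of all promoters. GAS letters were found in Gzmb, Lamp3 and Nkg7 (8.30% of all promoters), T-box letters in Gzmk and Nkg7 (3.98%), AP-1 letters in Gzmb (7.81%) and NF-kB letters in Gzmk (11.2%). These matches describe the letters in these windows, and no binding was measured.

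The number of reads on genes ran from 27414450 to 43784910 over the libraries. Levels are given as CPM, the counts relative to library size after scaling with edgeR's TMM method. Tmem173 stood at 168 to 316 CPM in all libraries and the DMSO groups of the 2 genotypes did not pass the test (log2 difference 0.10, adjusted p = 0.0827 by edgeR). With CMA it was higher in WT than in STINGgt/gt T cells (log2 0.80, adjusted p = 1.06e-10, edgeR), having risen in WT T cells (0.71) and not passed in STINGgt/gt T cells (0.02). A missense mutation acts on the protein, and Tmem173 RNA therefore gives no check of the genotype labels. The libraries of WT with DMSO differed more among themselves than those of any other group (chi-square per degree of freedom of pairs of libraries 10.0 to 30.0, against 2.64 to 6.85). Leaving out any one of them changed no call of a granule gene in the comparisons that use this group. Cd4 averaged 435 to 540.3 CPM in the 4 groups, and all 10 T-cell markers were measured in every library. Transcripts of other cell types were present as well and differed between genotypes, as given after the comparisons. In such bulk samples, fewer cells of a type and less RNA per cell cannot be told apart.

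All 10 genes together took 0.273% to 0.316% of the reads in WT T cells with DMSO and 0.294% to 0.304% with CMA. The STINGgt/gt libraries gave 0.128% to 0.134% with DMSO and 0.106% to 0.110% with CMA. The sum thus overlapped between treatments in WT T cells, while its make-up differed. Gzmb gave 69.6% to 72.8% of the reads of the set in WT T cells with DMSO and 46.7% to 50.2% with CMA. In STINGgt/gt T cells these shares were 64.6% to 67.3% and 59.8% to 62.0%. Per length of exon, Gzmb was the 14th most abundant of 13680 ranked genes in WT T cells with DMSO and ranked 21 with CMA, 55 in STINGgt/gt T cells with DMSO and 73 with CMA. Srgn ranked 145, 70, 262 and 296 in the same order. Gzma, Prf1 and Gzmc ranked 1100, 1725 and 1790 in WT T cells with DMSO, and Ctsw was the lowest of the 8 at rank 4739.

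**Figure D1:**
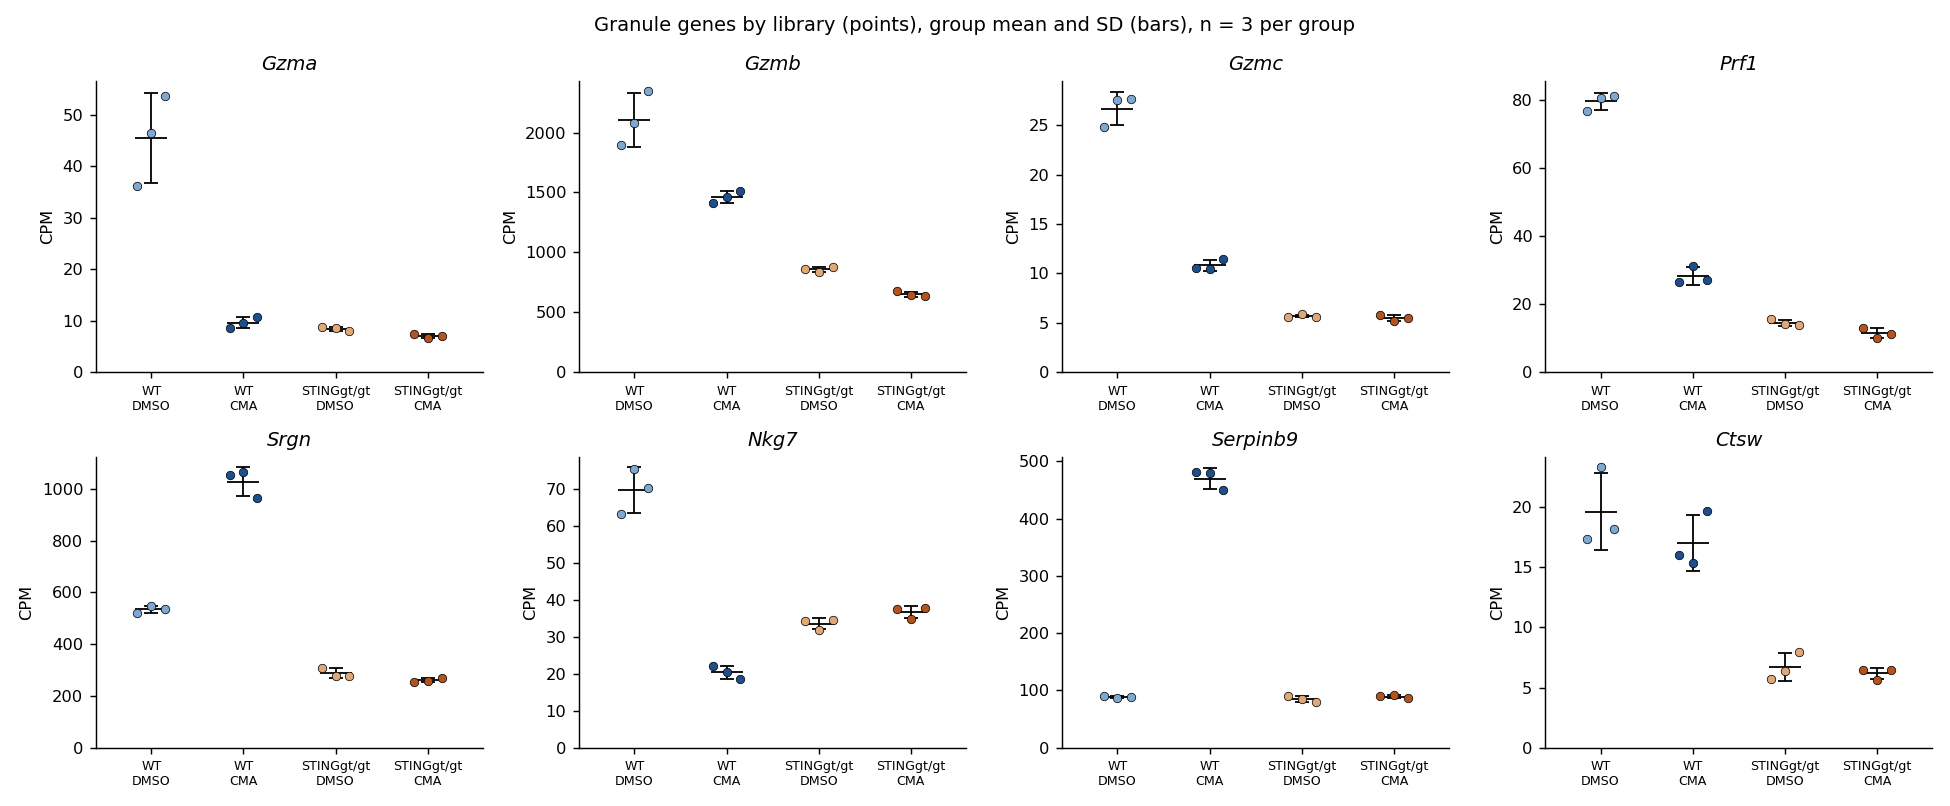
Level of the 8 tested granule genes in each of the 12 libraries. The vertical axis of each panel is CPM on a linear scale from 0, points are libraries, and horizontal lines and bars are the group mean and SD (n = 3). Serpinb9 is high in WT with CMA alone (449 to 481 CPM), and Gzma, Gzmc, Prf1 and Nkg7 are highest in WT with DMSO.

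The first question was how CMA alters these genes in WT T cells. Of the 8 tested, 2 were higher and 5 were lower with CMA (edgeR, adjusted p under 0.05 over all genes). For comparison, 33.0% of all genes tested were higher and 37.4% were lower, so that calls in either direction were common in this comparison. The median log2 fold change of the 8 genes was -0.91, and that of all 13811 genes was -0.04. A summary of both comparisons is plotted as the CMA effect in each genotype.

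**Figure D2:**
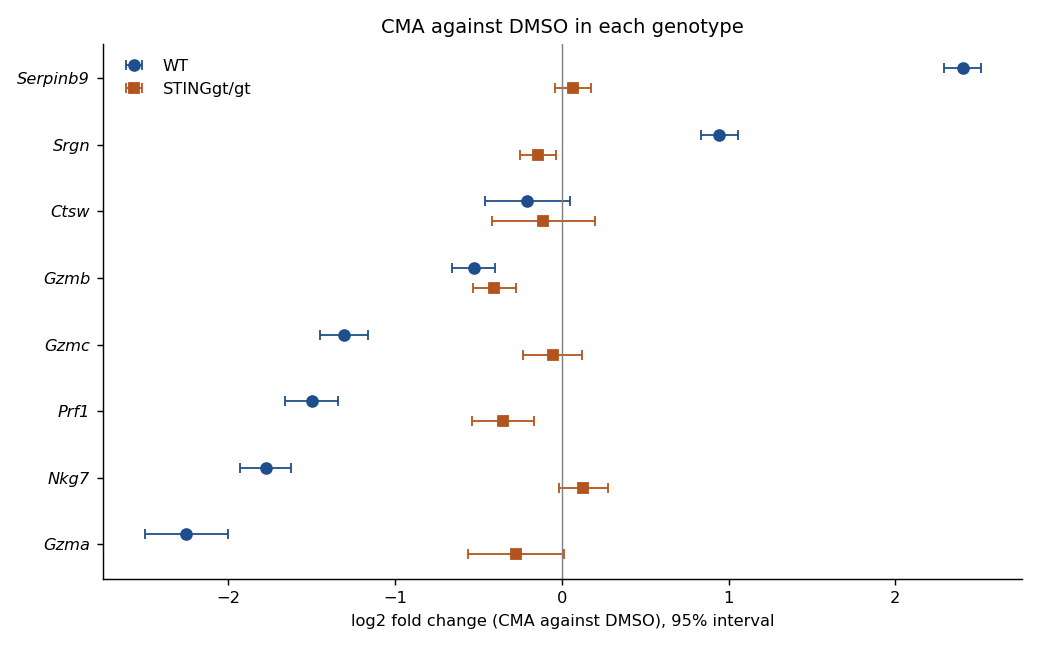
Log2 fold change of CMA against DMSO for each granule gene in WT (circles) and STINGgt/gt T cells (squares), with 95% intervals from the edgeR model, not adjusted for the number of genes. WT values run from -2.25 (Gzma) to 2.402 (Serpinb9), whereas all STINGgt/gt values lie between -0.40 and 0.13.

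Among the granzymes, Gzma, a protease that cuts after basic residues, showed the largest fall. Gzma (chromosome 13 of GRCm38, 113093825 to 113100979, minus strand) stood at 36.2, 46.5 and 53.7 CPM in WT T cells with DMSO and at 8.62, 9.53 and 10.7 CPM with CMA. The groups did not overlap, and the fall was 4.76-fold (log2 fold change -2.25 ± 0.117 SE, adjusted p = 4.22e-11, edgeR). Gzmb (chromosome 14, 56258856 to 56262260, minus strand), the protease that cuts after aspartate and activates caspases, was measured at 1893, 2084 and 2345 CPM with DMSO and at 1415, 1462 and 1512 CPM with CMA. Its groups did not overlap either, but the fall was only 1.44-fold (-0.53 ± 0.0609 SE, adjusted p = 8.98e-07, edgeR). Gzmc, which lies 24.2 kb from Gzmb in the same cluster (56231401 to 56234656, minus strand), gave 24.8, 27.6 and 27.6 CPM with DMSO and 10.6, 10.4 and 11.5 CPM with CMA, a 2.47-fold fall (-1.30 ± 0.0675 SE, adjusted p = 3.91e-11, edgeR). Neighbouring genes of this cluster thus changed by different factors. Of the transcript of Gzmc, 4.14% of all 50-base windows also occur in Gzmd, Gzme or Gzmg, whereas Gzma and Gzmb shared no such window with another gene. How many reads this affected was not measured.

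The remaining granzymes, and Lamp3, were scarce. Gzmk, a relative of Gzma 70.6 kb away on chromosome 13 (113171608 to 113225908, minus strand), gave 0 to 4 reads per library, and 3 reads correspond to 0.0679 to 0.109 CPM at these depths. Lamp3 (chromosome 16, 19653378 to 19706375, minus strand), a lysosome membrane protein best known from mature dendritic cells, gave 0 to 5 reads per library, and its WT groups overlapped. Of 6 further granzyme genes, Gzmn had no read in any library, Gzme and Gzmg were too low to be tested, and Gzmd, Gzmf and Gzmm averaged under 1 CPM in each group. Gzmd, for which 21.9% of windows are shared with other granzymes, was at 0.627 CPM with DMSO and 0.225 CPM with CMA in WT T cells (log2 fold change -1.48, adjusted p = 0.00646, edgeR). Gzmf and Gzmm did not pass the test (log2 fold changes of 0.13 and 0.09).

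Prf1 (chromosome 10, 61297836 to 61304263, plus strand) had levels of 76.8, 80.7 and 81.2 CPM in WT T cells with DMSO and 26.4, 31.2 and 27.0 CPM with CMA. This fall of the perforin transcript was 2.82-fold (log2 fold change -1.50 ± 0.0746 SE, adjusted p = 2.41e-11, edgeR), and the lowest DMSO library stood far above the highest CMA library. Srgn (chromosome 10, 62493833 to 62527451, minus strand) moved the other way. Its transcript rose from 519.9, 546 and 536 CPM to 1051, 1066 and 963 CPM, a 1.92-fold difference (0.94 ± 0.0520 SE, adjusted p = 8.54e-11, edgeR). The transcript of the granule scaffold was therefore higher where those of perforin and the 3 granzymes were lower. Requiring a change of at least 2-fold as well ended the calls of Srgn and Gzmb and left the other 5.

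Nkg7 (chromosome 7, 43437073 to 43438246, plus strand) fell from 63.2, 75.4 and 70.2 CPM to 22.1, 20.49 and 18.5 CPM in WT T cells. This was a 3.42-fold fall (log2 fold change -1.77 ± 0.0720 SE, adjusted p = 1.73e-12, edgeR), with no overlap between groups. Ctsw (chromosome 19, 5465240 to 5468498, minus strand) encodes cathepsin W, a cysteine protease of killer lymphocytes, and shares exon sequence with Fibp on the opposite strand, from which the stranded library could tell it apart only if strand was used in counting. Ctsw was at 17.4, 23.3 and 18.2 CPM with DMSO and at 16.0, 15.4 and 19.7 CPM with CMA. These groups overlapped, and the difference did not pass the test (-0.21, 95% interval -0.46 to 0.05, adjusted p = 0.136, edgeR). When single libraries were left out, this log2 difference ran from -0.321 to -0.0755. The Ctsw difference did pass in 2 of 23 alternatives, with all genes kept (adjusted p = 0.0413) and without replicate 3 of WT with CMA (adjusted p = 0.0352), and over all of them the adjusted p ran from 0.0352 to 0.529.

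Serpinb9 (chromosome 13, 33003250 to 33017957, plus strand), the granzyme B inhibitor, changed most. Its levels were 89.8, 87.5 and 89.2 CPM in WT T cells with DMSO and 481, 479 and 449 CPM with CMA. The rise was 5.29-fold (log2 fold change 2.402 ± 0.0511 SE, adjusted p = 6.77e-16, edgeR), and by fold change the gene ranked 331 from the top of 13811. Only 0.378% of its 50-base windows occur in another gene, Serpinb9b. Because Gzmb fell as its inhibitor rose, the level of Serpinb9 per kb of exon relative to that of Gzmb went from 0.0175 ± 0.00194 (SD, n = 3) to 0.132 ± 0.00911 in WT T cells. In STINGgt/gt T cells the same ratio was 0.0409 ± 0.00316 with DMSO and 0.0566 ± 0.00212 with CMA. The WT ratio thus stood below that of STINGgt/gt T cells with DMSO and above it with CMA, with no overlap of libraries. An exact test of 3 against 3 libraries cannot go below p = 0.1 and none was made on these ratios.

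**Figure D3:**
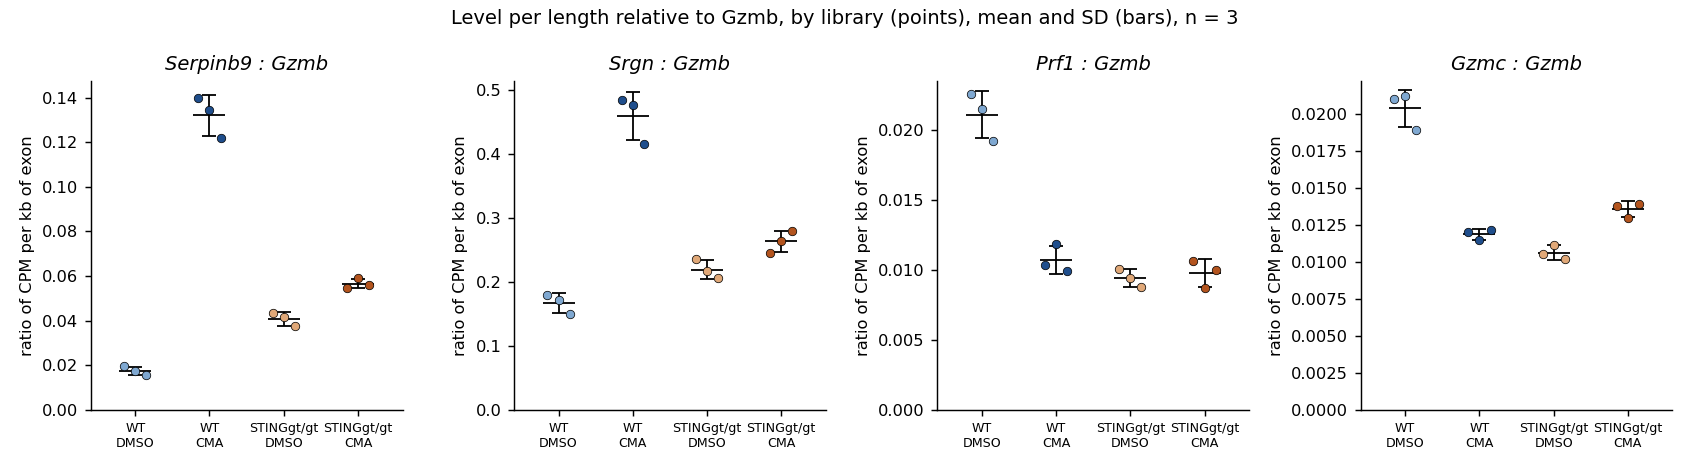
Level of Serpinb9, Srgn, Prf1 and Gzmc relative to Gzmb, as the ratio of CPM per kb of exon, in each library (points), with the group mean and SD (n = 3). The Serpinb9 ratio in WT T cells lies at 0.0156 to 0.0195 with DMSO and at 0.122 to 0.140 with CMA, and the Prf1 and Gzmc ratios are highest in WT with DMSO.

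The ratio of Prf1 to Gzmb, on the same scale, was 0.0211 ± 0.00169 in WT T cells with DMSO and 0.0107 ± 0.00101 with CMA. For STINGgt/gt T cells it was 0.00941 ± 0.000647 with DMSO and 0.00977 ± 0.000982 with CMA, and these libraries overlapped. The ratio of Srgn to Gzmb was 0.167 ± 0.0156 and 0.460 ± 0.0377 in WT T cells, and 0.219 ± 0.0154 and 0.264 ± 0.0171 in STINGgt/gt T cells. CMA-treated WT T cells therefore contained more transcript of the inhibitor and of the scaffold, and less of perforin, for a given amount of granzyme B transcript.

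The same treatment in STINGgt/gt T cells shows what CMA does without functional STING. None of the 8 genes was higher, and 1 was lower, against 0.398% and 0.920% of all genes tested, shares that moved by over 1.5 times when single libraries were left out. The gene was Gzmb, at 857, 838 and 881 CPM with DMSO and at 676, 639.5 and 631 CPM with CMA. Its libraries did not overlap, and the fall was 1.32-fold (log2 fold change -0.40 ± 0.0611 SE, adjusted p = 0.00317, edgeR). Prf1 was at 15.5, 14.2 and 13.9 CPM with DMSO and at 12.9, 10.0 and 11.3 CPM with CMA (-0.35 ± 0.0882 SE, adjusted p = 0.0604, edgeR). This difference did not pass, although the libraries did not overlap. Over 23 alternatives the adjusted p of Prf1 ran from 0.000797 to 0.265 and passed in 8, among them the fits without replicate 2 of WT with DMSO (0.0221), without replicate 3 of WT with DMSO (0.0247) and without replicate 1 of STINGgt/gt with CMA (0.0295).

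The other 6 genes did not pass in STINGgt/gt T cells. Gzma was at 8.84, 8.48 and 8.03 CPM with DMSO and at 7.40, 6.54 and 7.07 CPM with CMA (log2 fold change -0.28, 95% interval -0.56 to 0.01). Srgn gave 309.6, 277 and 277 CPM and then 254, 259 and 270.1 CPM (-0.14, interval -0.25 to -0.03, adjusted p = 0.237, edgeR). Both genes and Nkg7 had libraries that did not overlap, whereas those of Gzmc, Serpinb9 and Ctsw did. The share of all genes tested with groups that did not overlap was not counted, and this is a description only. Serpinb9 stood at 91.0, 84.6 and 80.1 CPM with DMSO and at 90.2, 91.8 and 86.1 CPM with CMA (0.07, interval -0.04 to 0.17). Gzmc lay at 5.62, 5.83 and 5.60 CPM and at 5.80, 5.16 and 5.48 CPM (-0.06, interval -0.23 to 0.12). Nkg7 was at 34.2, 31.7 and 34.4 CPM and at 37.3, 34.7 and 37.7 CPM (0.13, interval -0.02 to 0.28), and Ctsw at 5.75, 6.40 and 7.999 CPM and at 6.49, 5.65 and 6.44 CPM (-0.11, interval -0.42 to 0.20).

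Whether CMA acts differently in the genotypes was tested as the difference of both effects, WT minus STINGgt/gt. This difference passed the test above 0 for 2 of the 8 genes and below 0 for 4, against 27.2% and 31.6% of all genes tested. It was 2.34 ± 0.0706 (log2, SE) for Serpinb9 and 1.09 ± 0.0735 for Srgn. For Gzma it was -1.97 ± 0.180, for Nkg7 -1.90 ± 0.10, for Gzmc -1.25 ± 0.107 and for Prf1 -1.14 ± 0.115, with adjusted p between 2.31e-13 and 3.32e-07 for these 6 genes (edgeR). For Gzmb the fall was -0.53 in WT and -0.40 in STINGgt/gt T cells, and the difference of -0.12 (95% interval -0.30 to 0.06, adjusted p = 0.236, edgeR) did not pass the test. That value was -0.0264 without replicate 3 of WT with DMSO and was also closer to 0 by over 1.5 times without replicate 1 of STINGgt/gt with CMA. It ranged from -0.182 to -0.0264, with adjusted p from 0.0555 to 0.740, over all 22 alternatives. For Ctsw, which passed in neither genotype, the difference was -0.10 with an interval from -0.50 to 0.31.

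The genotypes were then compared under each treatment. With DMSO, 7 of the 8 genes were higher in WT than in STINGgt/gt T cells and none was lower, against 22.9% and 19.8% of all genes tested. The median log2 difference was 1.42 for the 8 genes and -0.002 for all genes. Prf1 was 5.47-fold higher in WT T cells (log2 difference 2.45 ± 0.0793 SE, adjusted p = 1.55e-12, edgeR), Gzma 5.40-fold (2.43 ± 0.118 SE) and Gzmc 4.70-fold (2.23 ± 0.0726 SE). These ranked 137, 141 and 175 from the top among the 13811 genes. Ctsw was 2.94-fold higher (1.55 ± 0.132 SE), Gzmb 2.45-fold (1.296 ± 0.0618 SE), Nkg7 2.08-fold (1.06 ± 0.0685 SE) and Srgn 1.85-fold (0.89 ± 0.0522 SE), all with libraries that did not overlap between genotypes. Serpinb9 did not pass, at a mean of 88.8 ± 1.19 CPM in WT and 85.3 ± 5.46 CPM in STINGgt/gt T cells (SD, n = 3 each; log2 difference 0.06, 95% interval -0.05 to 0.16, adjusted p = 0.372, edgeR).

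**Figure D4:**
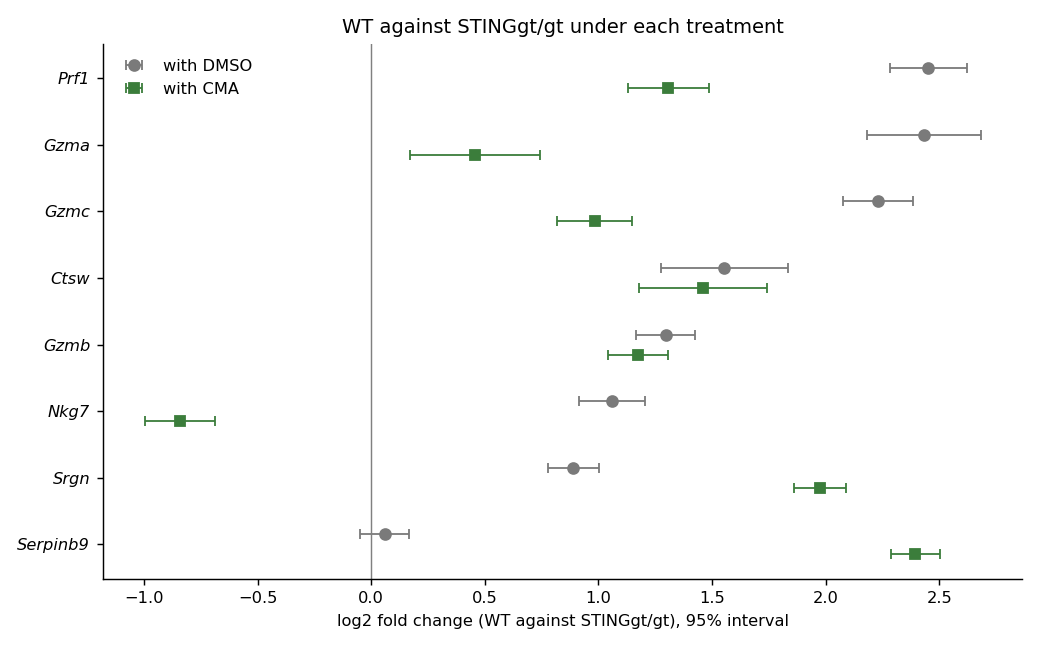
Log2 difference of WT against STINGgt/gt T cells for each granule gene with DMSO (circles) and with CMA (squares), with 95% intervals from the edgeR model, not adjusted for the number of genes. Nkg7 lies at 1.06 with DMSO and at -0.84 with CMA, and Serpinb9 at 0.06 and 2.39.

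With CMA, 7 of the 8 genes were higher in WT T cells and 1 was lower, against 37.0% and 36.5% of all genes tested. Serpinb9 was 5.26-fold higher (log2 difference 2.39 ± 0.0508 SE, adjusted p = 5.27e-16, edgeR) and Srgn 3.93-fold (1.98 ± 0.0535 SE). Ctsw was 2.75-fold, Prf1 2.48-fold, Gzmb 2.26-fold and Gzmc 1.98-fold higher. Gzma was 1.37-fold higher in WT T cells with CMA (0.46 ± 0.135 SE, adjusted p = 0.00598, edgeR), where its libraries, at 8.62 to 10.7 CPM, overlapped those of STINGgt/gt T cells with DMSO, at 8.03 to 8.84 CPM. Nkg7 was the gene that lay lower, 1.79-fold (-0.84 ± 0.0729 SE, adjusted p = 2.04e-08, edgeR). A required change of at least 2-fold ended the calls of Gzma, Gzmc and Nkg7 with CMA and that of Srgn with DMSO.

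For Gzmb and Prf1 the order of the 4 groups was the same, with WT with DMSO highest, then WT with CMA, STINGgt/gt with DMSO and STINGgt/gt with CMA, and no neighbours overlapped. For Nkg7 both STINGgt/gt groups, which did not overlap, lay between WT with DMSO and WT with CMA. For Srgn and Serpinb9 the highest group was WT with CMA. The Srgn levels of WT with DMSO were higher than those of both STINGgt/gt groups, whereas Serpinb9 did not separate the other 3 groups. The comparisons share libraries, and each is therefore given with its own values only.

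Although the cells had been sorted as naive T cells, markers of other lymphocytes moved with several of these differences. Natural killer cells and CD8+ T cells, which carry the same granules, were represented by 11 and 2 marker genes. The natural killer markers summed to 30.6 to 34.8 CPM in WT T cells with DMSO, 21.6 to 23.7 CPM with CMA, 15.2 to 16.0 CPM in STINGgt/gt T cells with DMSO and 15.2 to 15.9 CPM with CMA. With DMSO, 10 of 11 were higher in WT than in STINGgt/gt T cells, against 22.9% of all genes tested. With CMA in WT T cells 9 of 11 fell, against 37.4% of all genes tested. Among these markers Klrb1c fell from 2.12 to 0.409 CPM and Ncr1 from 0.755 to 0.235 CPM, and none of the 11 was at 0 in all libraries. Cd8a averaged 22.8 CPM in WT T cells with DMSO, 12.9 CPM with CMA, and 5.43 and 5.48 CPM in STINGgt/gt T cells. Cd8b1 averaged 26.5, 23.9, 14.4 and 14.9 CPM. Both were higher in WT than in STINGgt/gt T cells with DMSO, and Cd8a alone fell with CMA. Gzma, Gzmb, Gzmc, Prf1 and Nkg7 passed in the same directions in these comparisons. Of all genes tested, 37.0% were higher and 36.5% lower in WT than in STINGgt/gt T cells with CMA. With CMA, Klrb1c (log2 -1.70) and Ncr1 (-1.27) were lower in WT than in STINGgt/gt T cells, as was Nkg7, whereas 4 other natural killer markers and both CD8+ T-cell markers were higher, as were Gzma, Gzmb, Gzmc, Prf1 and Ctsw. For all of these genes the part of such cells in their differences was not tested.

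B-cell markers were present as well. All 7 were higher in WT than in STINGgt/gt T cells under either treatment. Of all genes tested, 22.9% were higher in this comparison with DMSO and 37.0% with CMA. In WT T cells 6 of the 7 rose with CMA. The sum of the 7 there was 276 to 286 CPM with DMSO and 383 to 411 CPM with CMA. Both STINGgt/gt groups lay at 122 to 129.8 CPM. Among all genes tested in WT T cells, 33.0% rose and 37.4% fell with CMA. These shares also apply to the marker lists that follow. Of 5 tested dendritic cell markers, 4 rose with CMA in WT T cells and Itgax, which encodes CD11c, fell (log2 -1.65). The markers of this list summed to 79.2–92.7 CPM with DMSO and 358–436 CPM with CMA, and most of the latter came from Fscn1, at a mean of 33.8 and 274.7 CPM. Siglech, Xcr1 and Clec9a, which define dendritic cell subsets, had 0 or 1 read in each library. Of 7 tested myeloid markers, 4 fell with CMA in WT T cells, Lyz2, Itgam, Fcgr3 and Clec7a, with log2 fold changes from -1.71 to -0.94. All 7 were higher in WT than in STINGgt/gt T cells with DMSO, and the 4 thus moved in the same directions as Gzma, Gzmb, Gzmc, Prf1 and Nkg7. Cybb alone rose with CMA (log2 1.33) and carried the sum of the 8 markers, which was 44.4 to 57.4 CPM with DMSO and 102 to 114 CPM with CMA in WT T cells and 18.6 to 20.7 CPM in STINGgt/gt T cells. The 8 markers of mast cells and basophils summed to at most 13.9 CPM in any library, and 4 of 5 tested were higher in WT than in STINGgt/gt T cells with DMSO. Serpinb9 and Srgn rose in the same libraries as these B-cell and dendritic cell markers, and the part of such cells in their rise was not tested. The 10 T-cell markers summed to 3859 to 3995 CPM in WT T cells with DMSO and 3571 to 3596 CPM with CMA, with 6 lower and 1 higher. With DMSO, 3 were higher and 2 lower in WT than in STINGgt/gt T cells, against 22.9% and 19.8% of all genes tested. Cd4 was among the lower (log2 -0.31). With CMA, 1 was higher and 4 lower in WT, against 37.0% and 36.5%.

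Genes that act with the granule proteins were read from lists of the pathway, to be set against 33.0% of all genes tested that were higher and 37.4% that were lower with CMA in WT T cells. In STINGgt/gt T cells these shares were 0.398% and 0.920%, under which no call in a short list is common. With so few genes in each list, the counts are descriptions, and none was tested against these shares. Of 17 tested genes of granule loading, processing and exocytosis, 7 were higher and 3 lower with CMA in WT T cells, with a median log2 fold change of 0.24, and none passed in STINGgt/gt T cells. Stx11, a SNARE protein needed for granule fusion, rose from 78.7–81.3 CPM to 144.5–146 CPM (1.82-fold, log2 0.86). Vamp8, a SNARE of the endosomes that precede granule release, and Sytl3, a partner of Rab27 proteins, rose by log2 values of 0.43 and 0.42. Ctsc, the peptidase that trims granzyme precursors to the active form, fell from 114–121 CPM to 86.6–88.9 CPM (log2 -0.41). Calr, a chaperone of the endoplasmic reticulum that is also found in granules, had the highest mean count of the list over the 12 libraries and rose 1.202-fold.

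Of 8 genes of the granule and lysosome membrane and interior, 5 were higher and 1 lower in WT T cells with CMA, and none passed in STINGgt/gt T cells. Cd63, a tetraspanin of lysosomes, rose from 2.33–2.85 CPM to 4.55–5.15 CPM (log2 0.89). M6pr, a receptor that delivers granzymes to the granule, Lamp1, the membrane protein exposed on release, and Ctsb, a lysosomal protease, rose by log2 values of 0.43, 0.43 and 0.32.

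The list of serpins related to Serpinb9 had 6 tested genes, of which 4 were higher and 2 lower with CMA in WT T cells. Serpinb6b rose 4.19-fold, from 295–314 CPM to 1238–1288 CPM (log2 2.07), and Serpina3f 1.85-fold. Serpinb1a fell from 10.6–16.3 CPM to 4.23–5.01 CPM (log2 -1.48), and Serpinb6a fell by a log2 value of 0.94. Serpina3f was the only serpin of the list to pass in STINGgt/gt T cells (log2 0.27, adjusted p = 0.0238, edgeR). Serpinb9c, Serpinb9d, Serpinb9e, Serpinb9f and Serpinb9g had no read in any library.

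**Figure D5:**
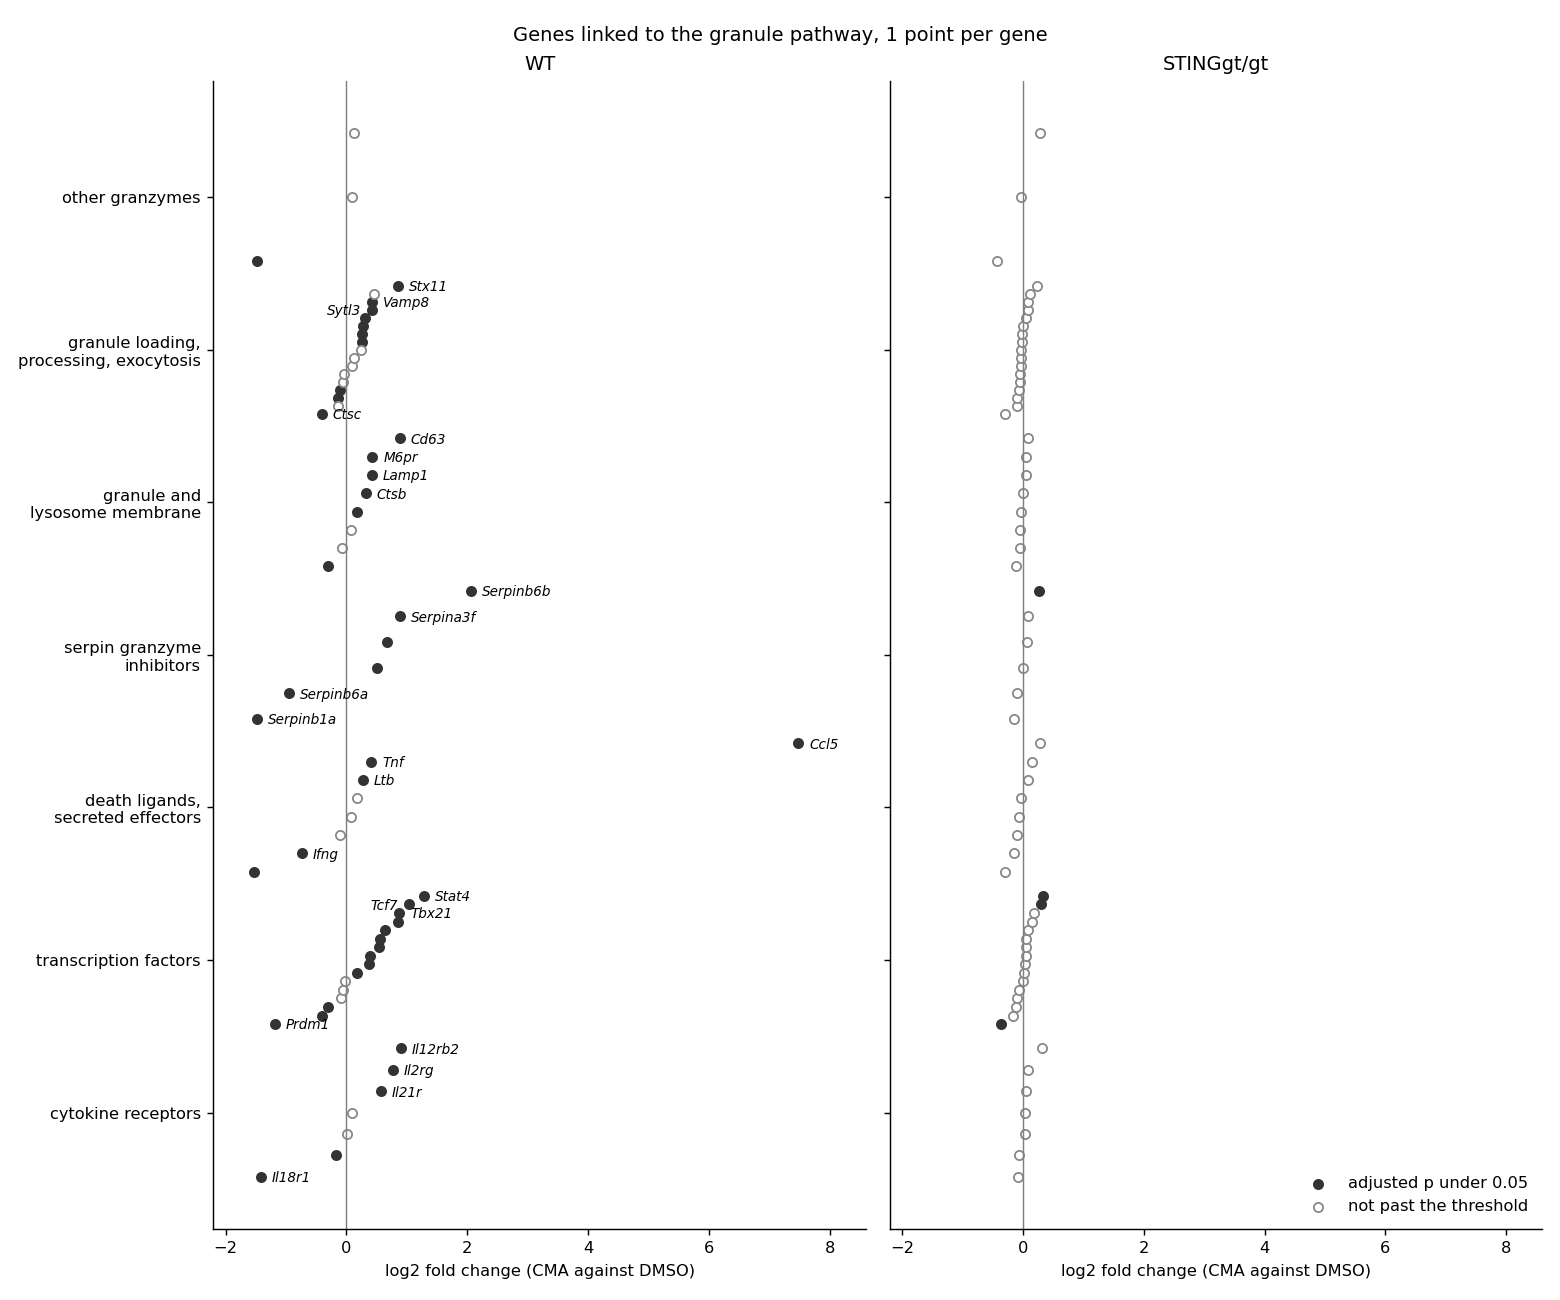
Log2 fold change of CMA against DMSO for the tested genes of 7 lists linked to the granule pathway, in WT (left) and STINGgt/gt T cells (right), with 1 point per gene. Filled points passed an adjusted p of 0.05 in edgeR. Ccl5 lies at 7.48 and Serpinb6b at 2.07 in WT T cells, whereas the few filled points in STINGgt/gt T cells are within 0.37 of 0.

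Other means of killing and signalling by these cells were read as 8 death ligands and secreted effectors, of which 3 were higher and 2 lower in WT T cells with CMA, close to the shares of all genes. Ccl5, a chemokine that killer cells store and release, rose from 9.07–12.9 CPM to 1894–1965 CPM (178-fold, log2 7.48, adjusted p = 7.39e-19, edgeR). Tnf and Ltb rose by log2 values of 0.41 and 0.28, and Lta, with the highest mean count of the list over the 12 libraries, did not pass (0.18). Ifng, the cytokine most often made together with granzymes, fell from 56.3–57.5 CPM to 30.9–36.3 CPM (log2 -0.73). Fasl and Tnfsf10, the ligands that kill without granules, did not pass in either genotype.

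The list of 16 transcription factors linked to the cytotoxic programme holds factors that promote it and others known to oppose it, such as Tcf7, Bcl6 and Zbtb7b. With CMA in WT T cells 10 were higher, these 3 among them, and 3 lower. In STINGgt/gt T cells 2 were higher and 1 lower, against 0.398% and 0.920% of all genes tested. Tbx21, which encodes T-bet, a factor that binds the Prf1 and Gzmb loci, rose from 85.6–93.8 CPM to 163–169 CPM (log2 0.87) and also rose in STINGgt/gt T cells (log2 0.30, adjusted p = 0.00208, edgeR). Stat4, which transmits the interleukin-12 signal, and Tcf7, a factor of memory-like T cells, rose by log2 values of 1.28 and 1.03. Prdm1, which encodes the effector factor Blimp-1, fell from 10.1–14.8 CPM to 4.24–6.56 CPM (log2 -1.19). Irf4, with the highest mean count over the 12 libraries, did not pass (-0.03). The levels of Tbx21 on the one side and of Prf1 and Gzmb on the other thus changed in opposite directions in WT T cells. In STINGgt/gt T cells the same held for Tbx21 and Gzmb, and Prf1 did not pass.

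Of 7 receptors of cytokines that act on granule genes, 3 were higher and 2 lower in WT T cells with CMA. These counts were also close to the shares of all genes in WT T cells, and no receptor passed in STINGgt/gt T cells. Il12rb2, Il2rg and Il21r rose by log2 values of 0.90, 0.77 and 0.57. Il18r1 fell from 12.9–15.4 CPM to 4.94–5.91 CPM (log2 -1.42), and Il2ra, with the highest mean count over the 12 libraries, did not pass at 1803 to 2004 CPM with DMSO and 1948 to 2064 CPM with CMA.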

How the data were processed

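The 12 libraries were made from WT and STINGgt/gt T cells kept with DMSO or with CMA at 125 μg/ml. Per the labels and files, the authors deposited 1 table of raw read counts for each library, with Ensembl gene IDs and no normalization. They also deposited a log2 table of 11921 genes, which equals the log2 of the count plus 0.5 minus the log2 of the library's TMM-scaled size (edgeR), apart from a constant. Per the submitters' processing notes the tools were cutadapt 1.3, STAR 2.4.0f1, HTSeq 0.6.1 and RSEM 1.2.16, and the genome was GRCm38. The strand setting of the counting is not given in the sources used here. Alignments that were not unique (27.8% to 30.3% of entries) were left out by the authors, which lowers genes with near-identical copies, and these tallies, with reads outside genes (4.86% to 7.16%) and ambiguous reads (0.594% to 0.635%), stayed out of library sizes.

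Counts were tested with edgeR 4.0.16 (R 4.3.3; glmQLFit and glmQLFTest, TMM scaling, filterByExpr by group, 4 groups in 1 model, no block), with Benjamini-Hochberg adjustment over all 13811 genes and a threshold of 0.05. Intervals are 95% intervals of the model and are not adjusted. Groups were said not to overlap when every library of one lay above every library of the other. The share of all genes for which this held was not counted in any comparison. The model was tested on simulated data in which far fewer genes changed than with CMA in WT T cells. That test is therefore no check of the scaling under so wide a response. No 2 replicates were alike within sampling noise (chi-square per degree of freedom 2.64 to 30.0, highest in WT with DMSO). Positions are those of the deposited table, or GENCODE M21 for Gzmk and Lamp3, and lengths are unions of GENCODE M21 exons. The members and lists were chosen with earlier results of these data known. All members and all other granzymes are named. From each further list up to 4 genes are named that passed in WT T cells, had a mean count of at least 50 and groups without overlap, by size of change, with the gene of the highest mean count over all libraries, and others as examples chosen after their values were seen. The alternatives were library-size scaling, DESeq2 size factors, DESeq2 1.42.0, limma 3.58.1 on the log2 table, leaving out the filter, a minimum of 10 counts per library, an adjusted p under 0.01, a 2-fold minimum, only the 2 groups compared, replicate blocks and leaving out each library. Vamp7 had no gene ID matched and was not analysed here. A gene of the list of the granule and lysosome membrane is not reported here and was left out of its counts.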

Additional observations from a re-analysis of the deposited data

Results flagged for a closer look

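For 6 of the 8 tested granule genes CMA had different effects in the 2 genotypes, by a test of the difference itself (edgeR, adjusted p under 0.05). The same test passed above 0 for 27.2% of all genes tested and below 0 for 31.6%, so that such calls were common. The log2 difference of the effects, WT minus STINGgt/gt, was 2.34 for Serpinb9 and 1.09 for Srgn. It was -1.97 for Gzma, -1.90 for Nkg7, -1.25 for Gzmc and -1.14 for Prf1. Each kept its direction and its call in all 22 alternatives run on it. In the alternatives Serpinb9 ranged from 2.30 to 2.39 and Gzma from -2.10 to -1.82.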

How the results depend on the processing

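Over 896 values of single genes under the alternatives, 875 kept their direction and their side of the threshold, 7 no longer passed, 10 passed only there and 4 changed sign. For 28 of 40 combinations of a gene and a comparison every alternative gave the same direction and the same call. A 2-fold minimum left 1 gene higher with CMA in WT T cells (2 without it), 0 lower with CMA in STINGgt/gt T cells (1 without it) and 0 lower in WT than in STINGgt/gt T cells with CMA (1 without it). In STINGgt/gt T cells 2 genes, Gzmb and Prf1, were lower with CMA under DESeq2, limma on the log2 table, no filter, only the 2 groups compared and the replicate block, and 1 to 2 when each library was left out in turn. The values that changed sign were within 0.04 of 0 and came from genes that did not pass: Gzmc in STINGgt/gt T cells was 0.00935 with the replicate block by library name, Ctsw in STINGgt/gt T cells ran from -0.216 to 0.0253 when each library was left out (0.0253 without replicate 3 of STINGgt/gt with DMSO), and the difference of effects of Ctsw lay between -0.222 and 0.0354 (0.0354 when replicate 2 of WT with DMSO was left out and 0.0191 without replicate 1 of STINGgt/gt with DMSO). The cause of these changes was not tested.

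The share of all genes called in STINGgt/gt T cells depended on the setting: 55 genes were higher and 127 lower, 117 and 206 with DESeq2, 268 and 388 with only the 2 groups compared, 130 and 233 with the replicate block, 12 and 31 with the block by library name, and 2 and 2 with a 2-fold minimum. Leaving out replicate 2 or 3 of WT with DMSO gave 180 and 276 or 169 and 289, and leaving out any single STINGgt/gt library gave 14 to 31 higher and 41 to 72 lower. Same-numbered libraries correlated at 0.00195 to 0.132 in their deviations from the group means, over 0.1 in 2 of 6 pairs, and 5 of 6 matched best with their own number. The submitters' library names share a first digit in 5 of 6 of these pairs, and what that digit marks is not given in the sources used here. The samples were taken to share only a number, and a pairing remains possible. The replicate block changed no other call among the granule genes. With 3 libraries per group an exact permutation test of a single gene cannot go below p = 0.1. At the depths used, 3 reads correspond to 0.0679 to 0.109 CPM, under which Gzmk and Lamp3 could not be read.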

Other observations

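The genes whose levels most resembled those of each granule gene over the 12 libraries were read as Pearson correlations of log2 CPM (prior count 2). The search covered 11191 genes with a mean count of at least 50, from which the tested granule genes had been left out. The libraries fall into 4 groups, and such values mostly describe shared differences between groups. Gzma was most like Ctla2a (r = 0.990), which fell by a log2 value of 2.19 with CMA in WT T cells, and Elmo2 (0.988). Gzmc and Prf1 shared Lpxn (0.995 and 0.993), with Hlx (0.994) next for Gzmc and Rcn3 (0.995) first for Prf1. Gzmb was most like Gsn (0.990), which encodes the actin-severing protein gelsolin, and Creb3l2 (0.988). Nkg7 was most like Tnfsf14 (0.991), a ligand of the tumour necrosis factor family, and Cltb (0.987), a clathrin light chain.

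Srgn was most like Selp (0.998), the adhesion receptor P-selectin, which rose by a log2 value of 2.32 with CMA in WT T cells, and Lrrk1 (0.996). Serpinb9 was most like Gypc (0.999), which encodes glycophorin C and rose by a log2 value of 2.22, and Nt5c3 (0.999). Ctsw, which did not pass with CMA, was most like As3mt (0.990) and Grb7 (0.987). Only the 2 nearest genes of each were listed. No granule gene could be among them, as these were not searched. Gzmc and Prf1 correlated with each other at 0.9915.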
